A study of Mus musculus with 3 samples.

Results

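Hephaestin and 9 other genes of iron handling were followed across 3 kinds of cultured mouse heart cell. The members were named as a list: Heph, Cp, Slc40a1, Slc11a2, Tfrc, Trf, Fth1, Ftl1, Ireb2 and Aco1. They are 10 of the 18245 genes in the deposited table, and each was found by its symbol. Heph was chosen by its measured counts, which were 0 in the epithelial clone, and the other 9 were taken for their function, so the levels of Heph in the clone are a description without a test. The kinds are cardiosphere-derived cells (CDC), an epithelial clone derived from them (CDC-EpiC) and primary epicardial cells (pEpiC), each with 3 libraries of messenger RNA. Cells of all 3 kinds came from the ventricle epicardium, the outer cell layer of the heart, of C57BL/6 mice with no engineered allele stated. CDC grew out of epicardial explants from mice 6 weeks old by way of floating spheres. CDC-EpiC came from CDC grown for 2 weeks with SB-431542 (10 µM), which blocks the kinase of TGF-beta type I receptors, after which an epithelial colony was isolated in a cylinder, and its 3 libraries are of 1 clone. pEpiC were released by collagenase and trypsin from hearts of mice 6 to 8 weeks old. The study's methods give CDC and pEpiC different basal media and serum contents as well as different isolation routes. Comparisons with pEpiC thus cannot tell the kind of cell apart from its isolation and culture. No library of CDC given the inhibitor without cloning was analysed here, so the inhibitor, the cloning and the clone's own history cannot be told apart. The extraction protocol speaks of separate samples for each kind, while the study's methods speak of fewer biological replicates per condition than there are library columns. Whether the libraries of a kind are separate animals or cultures is not stated, so n = 3 counts libraries and p-values measure the spread between these libraries, which may be technical.

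Iron enters most cells as a complex with the blood protein transferrin (Trf), which binds the transferrin receptor (Tfrc), and the divalent metal transporter Slc11a2 (DMT1) moves it out of the endosome. Surplus iron is stored inside shells of ferritin heavy and light chains (Fth1, Ftl1) and leaves through ferroportin (Slc40a1), the exporter of ferrous iron. The multicopper ferroxidases hephaestin (Heph) and ceruloplasmin (Cp) oxidise that iron so that transferrin can take it up. The iron regulatory proteins Aco1 (IRP1) and Ireb2 (IRP2) bind hairpins in messenger RNAs called iron-responsive elements. A hairpin in the 5′ UTR lowers translation when bound, and hairpins in the 3′ UTR protect the RNA from decay.

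The libraries held 22008833 to 22756045 expected counts. Of 8 epicardial and mesothelial markers, all were read in each kind, with summed levels of 641 to 683 CPM (counts scaled to the library total with TMM factors) in CDC, 5758 to 6728 in CDC-EpiC and 556 to 590 in pEpiC. In CDC-EpiC the sum was led by Upk3b, Lrrn4 and Upk1b, and these, Wt1 and Msln had their most counts there. The rest did not follow. Tcf21 had 578 to 700 counts a library in CDC-EpiC against 2182 to 2516 in pEpiC. Aldh1a2 had 38 to 54 against 407 to 519. Tbx18 had 1970 to 2072 counts in CDC, 1171 to 1407 in CDC-EpiC and 1094 to 1152 in pEpiC. Macrophage markers summed to 72.5 to 74.3 CPM in CDC, 30 to 32.9 in CDC-EpiC and 299 to 832 in pEpiC. pEpiC library 1 stood apart as the highest. In CDC, Lyz2 (786 to 867 counts a library), Csf1r (409 to 448) and Cd14 (252 to 355) led the sum. Ptprc, Adgre1 and Fcgr1 had 0 or 1 count in each CDC and CDC-EpiC library. Cd68 went the other way between these kinds, with 281 to 328 counts in CDC-EpiC and 36 to 51 in CDC. CDC libraries 1 and 2 held reads of liver genes (78.4 and 84.4 CPM, against 24.5 in CDC library 3), red blood cell genes (52.1 and 83 CPM, against 0.181) and cardiomyocyte genes (27.9 and 27.6 CPM, against 9.46). Cardiomyocyte markers summed to 10.1 to 12.7 CPM in CDC-EpiC and 137 to 154 in pEpiC, where Tnnt2 made up most of them, with Myl2 and Nppa at 0 to 5 counts a library. Fibroblast and mesenchymal markers, 5 genes led by Col1a1 and Col1a2 in CDC and pEpiC, summed to 8581 to 11080 CPM in CDC, 6335 to 7791 in CDC-EpiC and 21867 to 24218 in pEpiC. In CDC-EpiC, Col1a2 led, and Dcn had 36683 to 45767 counts beside 33786 to 41567 of Col1a1. Dcn and Pdgfra were higher in CDC-EpiC than in CDC (8659 to 12505 counts of Dcn in CDC), while Col1a1 and Thy1 were lower. Endothelial markers summed to 7.1 to 7.8 CPM in CDC, 8.37 to 9.86 in CDC-EpiC and 23.5 to 25.5 in pEpiC. In pEpiC, Tek made up most of them (377 to 434 counts a library), with Pecam1 at 1 to 17 and Cdh5 at 3 to 22. Counts also moved with transcript length: genes of 800 to 1100 bases had a median log2 change of -0.76 in pEpiC against CDC (605 genes) and 0.69 in CDC-EpiC against pEpiC (605 genes), while genes of 4000 to 6000 bases had 0.34 (2469 genes) and -0.36 (2480 genes). Between CDC-EpiC and CDC the same classes had -0.05 (576 genes) and 0.02 (2375 genes). The ferritin transcripts, of 923 (Fth1) and 952 bases (Ftl1), lie in the short class.

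The iron-responsive elements are shown because they are what the 2 regulators among the members bind and because they join storage, export and uptake in 1 circuit. They were searched for in GENCODE M21 transcripts (GRCm38) on the sense strand as CNNNNNCAGTGN followed by 5 bases that pair with the 5 bases after the first C, with G-T pairs allowed. The capitals mark the 6 bases of the loop.
Fth1, 5′ UTR: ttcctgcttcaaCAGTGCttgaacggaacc
Ftl1, 5′ UTR: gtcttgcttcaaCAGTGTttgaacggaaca
Slc40a1, 5′ UTR: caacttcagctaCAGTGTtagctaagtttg
Tfrc site 1, 3′ UTR: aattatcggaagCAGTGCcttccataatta
Tfrc site 2, 3′ UTR: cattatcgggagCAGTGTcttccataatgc
Tfrc site 3, 3′ UTR: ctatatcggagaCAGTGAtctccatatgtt
Tfrc site 4, 3′ UTR: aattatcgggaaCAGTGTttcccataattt
Slc11a2, 3′ UTR: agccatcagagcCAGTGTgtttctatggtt

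The Fth1 site lies at chr19:9982732-9982761 on the plus strand, in exon 1 of Fth1-201. The Ftl1 site is at chr7:45459778-45459807 on the minus strand, in exon 1 of Ftl1-201, and shares 26 of 30 bases with that of Fth1. The Slc40a1 site is at chr1:45925464-45925493 on the minus strand, in exon 1 of Slc40a1-201, and shares 13 of 30 bases with either ferritin site. The 4 Tfrc sites lie in exon 19, the last exon of Tfrc-201, between chr16:32631219-32631248 and chr16:32631710-32631739 on the plus strand, and pairs of them share 18 to 25 of 30 bases. The Slc11a2 site, at chr15:100395152-100395181 on the minus strand, pairs at 4 of the 5 stem bases and is in the last exon of Slc11a2-205, so gene-level counts do not separate transcripts with it from those without it. A full match in a 5′ UTR was found in 31 of 21842 protein-coding genes (0.142%), 3 of which are members, and a full match in a 3′ UTR in 129 (0.591%). A match is a description of letters and no measure of binding.

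Heph, the membrane-bound ferroxidase, had no read in the clone and was abundant in primary epicardial cells. The gene (NCBI gene 15203) spans chrX:96455359-96574485 on the plus strand. CDC libraries 1, 2 and 3 held 96, 88 and 147 expected counts, all 3 CDC-EpiC libraries held 0, and pEpiC libraries held 3187, 3156 and 2691. Every pEpiC library thus lay far above every CDC library, and every CDC library above the clone. The levels were 5.02 ± 1.43 CPM in CDC and 131 ± 11.6 in pEpiC (SD, n = 3 each), a rise of 25.3-fold (log2 4.66, SE 0.15, edgeR quasi-likelihood test, adjusted p = 2.5e-09). A count of 0 allows up to 3 counts per library, or a mean of 0.134 CPM in CDC-EpiC. The clone was thus at least 37.5-fold below the mean of CDC and at least 979-fold below the mean of pEpiC. These bounds compare means and not single libraries, cover counting error in the clone alone and carry no test. Heph was chosen for its 0 counts, so its place among the 1766 genes with 0 counts in all clone libraries is a description. With at most 3 counts in each clone library and at least 88, the lowest value of Heph, in each of the other 6 libraries, there were 3 genes. In bulk RNA, fewer cells that express a gene and less RNA per cell cannot be told apart. Without CDC libraries 1 and 2, the pEpiC against CDC change of Heph was 4.25. The macrophage, cardiomyocyte, endothelial and fibroblast marker sums were also higher in every pEpiC library than in any CDC or clone library. In pEpiC the endothelial sum was mostly Tek and the cardiomyocyte sum mostly Tnnt2. Some single markers went the other way from the sums. Egfl7 (endothelial) had 38 to 61 counts in pEpiC against 110 to 146 in CDC, and Thy1 (fibroblast) 2625 to 3090 against 5966 to 6825. Myh6 (cardiomyocyte) had 0 or 1 count in pEpiC against 191, 190 and 0 in CDC. The part of these cell types in the levels of Heph was not tested.

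Cp, the ferroxidase secreted into plasma or held on the cell surface by a lipid anchor, was read in every library, the clone included. Its levels were 174, 130 and 211 CPM in CDC, 110, 134 and 122 in CDC-EpiC and 240, 226 and 220 in pEpiC. All pEpiC libraries were above the others, while the ranges of CDC and CDC-EpiC overlapped. Cp was lower in the clone than in pEpiC (log2 -0.91, SE 0.07, edgeR adjusted p = 1.1e-06) and than in CDC (log2 -0.50, SE 0.13, edgeR adjusted p = 0.00349). The rise in pEpiC over CDC was small (log2 0.37, SE 0.14, edgeR adjusted p = 0.0304). It did not pass without CDC library 1 (log2 0.37, adjusted p = 0.0786), CDC library 2 (log2 0.20, 0.0656), pEpiC library 1 (log2 0.33, 0.0695) or pEpiC library 2 (log2 0.38, 0.0653), all by edgeR, nor with the transcript length offset (log2 0.17, edgeR adjusted p = 0.242), and it was 0.86 on log2(TPM + 1). Adjusted p ranged from 0.00158 to 1 over its alternatives. The loss against CDC in turn did not pass on log2(TPM + 1) (-0.40, limma adjusted p = 0.0511, range over alternatives 1.9e-05 to 1). Liver makes most plasma ceruloplasmin. The liver marker sum was 78.4, 84.4 and 24.5 CPM in CDC libraries 1, 2 and 3, and in library 3 Ahsg led it. Against CDC library 3 alone, Cp changed by log2 0.07 in pEpiC and by log2 -0.80 in the clone. The part of liver reads in the levels of Cp was not tested.

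Per transcript length (TPM, which corrects for length and has the same sum in each library), hephaestin and ceruloplasmin divided differently in the 3 kinds. Heph made up 2.18% to 2.7% of their sum in CDC, 0% in CDC-EpiC and 32.2% to 35% in pEpiC. The sum itself was 55.9 to 98.1 TPM in CDC, 49.6 to 59.3 in CDC-EpiC and 188 to 208 in pEpiC. In the clone the sum was made up of Cp reads, and it overlapped the range of CDC. Hephl1, the last gene of the family, stayed under 2 CPM in each kind, with means of 0.593 in CDC, 0.178 in CDC-EpiC and 0.944 in pEpiC, and was lower in the clone than in pEpiC (log2 -2.37, SE 0.38, edgeR adjusted p = 2.1e-04).

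Slc40a1, the iron exporter that works beside the ferroxidases, was highest in pEpiC and lowest in CDC. CDC libraries had 0.369, 0.771 and 0.86 CPM, CDC-EpiC libraries 2.87, 2.45 and 2.44, and pEpiC libraries 21.4, 21.2 and 22. The 3 ranges did not overlap, and the CDC values rest on 8, 17 and 19 counts. pEpiC exceeded CDC by log2 4.95 (SE 0.18, edgeR adjusted p = 6.6e-09). The clone exceeded CDC by log2 1.94 (SE 0.27, edgeR adjusted p = 1.1e-05) and was lower than pEpiC by log2 -3.06 (SE 0.10, edgeR adjusted p = 2.3e-09). On log2(TPM + 1), which understates changes of low genes, the rise in the clone over CDC was 0.84. Heph and Slc40a1 thus both had their top level in pEpiC, but in the clone Slc40a1 was above CDC while Heph was not read. Macrophages also express this exporter, and 9 of 10 macrophage markers were higher in pEpiC than in CDC. In pEpiC library 1 the macrophage markers were 2.46 to 3.08 times their mean in libraries 2 and 3, and Slc40a1 was at 0.989 times. The part of macrophages, or of the other cell types whose marker sums were highest in pEpiC, in the rise of Slc40a1 was not tested.

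**Figure D1:**
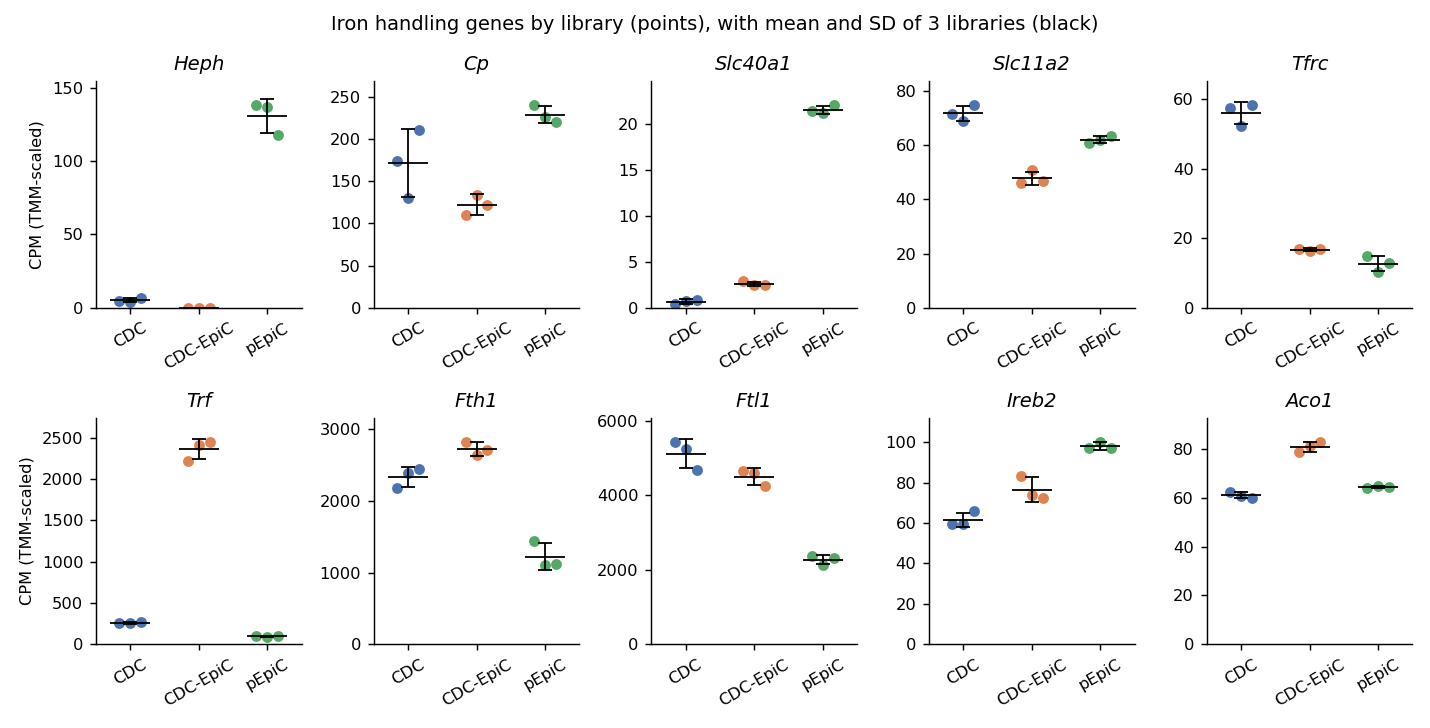
Level of each member in CPM after TMM scaling, on axes from 0, for the 3 libraries of CDC, CDC-EpiC and pEpiC (points) with the mean and SD in black. Heph and Slc40a1 stand high in pEpiC, Trf stands high in CDC-EpiC and Tfrc stands high in CDC.

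Trf, the carrier of iron in plasma, was the member with the largest rise in the clone. CDC libraries had 255, 257 and 276 CPM, CDC-EpiC libraries 2220, 2405 and 2446, and pEpiC libraries 103, 92.7 and 96.5. Each clone library was above every other library, and each pEpiC library below every CDC library. The clone exceeded CDC by 8.94-fold (log2 3.16, SE 0.09, edgeR adjusted p = 2.5e-13) and pEpiC by 24.1-fold (log2 4.59, SE 0.07, edgeR adjusted p = 3.5e-11). pEpiC was lower than CDC (log2 -1.47, SE 0.07, edgeR adjusted p = 2.3e-08), and by -0.97 on log2(TPM + 1). Liver makes most plasma transferrin, and liver reads were more frequent in CDC libraries 1 and 2. Against CDC library 3 alone the clone was higher by log2 3.09, and the part of liver reads in the levels of Trf was not tested.

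Tfrc, the receptor that takes up iron-loaded transferrin, showed another order. CDC libraries had 57.5, 52.2 and 58.2 CPM, CDC-EpiC libraries 16.8, 16.3 and 17, and pEpiC libraries 14.8, 10.4 and 12.9. CDC stood well above both others, and the clone just above pEpiC. Tfrc was lower than in CDC both in pEpiC (log2 -2.18, SE 0.11, edgeR adjusted p = 5.2e-08) and in the clone (log2 -1.75, SE 0.08, edgeR adjusted p = 3.8e-11). The gap between clone and pEpiC was small (log2 0.39, SE 0.12, edgeR adjusted p = 0.0119), and on log2(TPM + 1) it was 0.01 (limma adjusted p = 0.931, range over alternatives 3.5e-04 to 1), a scale on which the median of all genes shifts by -0.33 in that comparison. With the length offset it was 0.72. The ratio of Trf to Tfrc in TPM was 9.4 to 10.4 in CDC, 282 to 310 in CDC-EpiC and 14.5 to 18.9 in pEpiC. The clone thus stood apart from both other kinds in this ratio, with no overlap of libraries.

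Slc11a2, the transporter that releases iron from the endosome, varied less. It was at 71.6, 68.9 and 74.7 CPM in CDC, 46, 50.7 and 46.8 in CDC-EpiC and 60.7, 61.9 and 63.4 in pEpiC. The clone was lowest, by log2 -0.59 against CDC (SE 0.07, edgeR adjusted p = 4.4e-06) and -0.38 against pEpiC (SE 0.05, edgeR adjusted p = 6.7e-05, and -0.75 on log2(TPM + 1)). pEpiC was below CDC by log2 -0.25 (SE 0.05, edgeR adjusted p = 0.00163). The sign of that last difference turned on log2(TPM + 1), where it was 0.32 (limma adjusted p = 0.00334, range over alternatives 3.4e-05 to 1) beside a shift of 0.41 in the median of all genes. With the length offset the pEpiC against CDC value was -0.39 and the clone against pEpiC value -0.22.

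**Figure D2:**
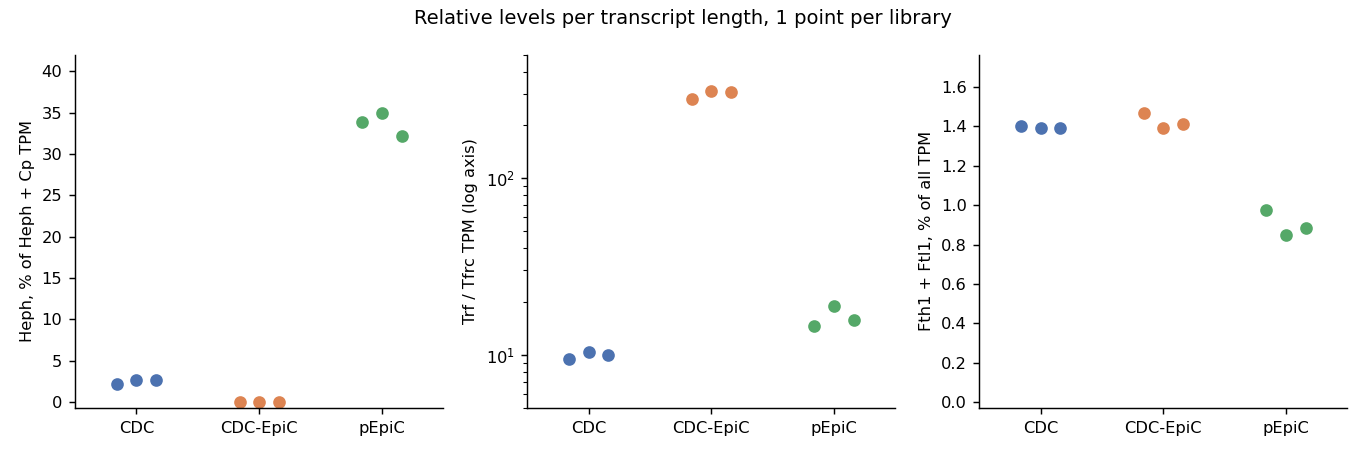
Heph as a percent of the summed TPM of Heph and Cp, the ratio of Trf to Tfrc on a log axis, and the ferritin chains as a percent of all TPM, with 1 point per library. The clone is at 0% for Heph and at 282 to 310 for the ratio, and pEpiC has the lowest ferritin share.

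Fth1 and Ftl1, the 2 chains of ferritin, were the most abundant members in every kind. Ftl1, the chain that aids mineral formation, was at 5432, 5242 and 4676 CPM in CDC, 4661, 4597 and 4246 in CDC-EpiC and 2384, 2130 and 2319 in pEpiC. Fth1, the chain with ferroxidase activity, was at 2178, 2379 and 2434 CPM in CDC, 2815, 2630 and 2710 in CDC-EpiC and 1438, 1104 and 1117 in pEpiC. Both chains were lowest in pEpiC with no overlap of libraries. Against CDC, pEpiC was lower by log2 -1.21 for Ftl1 (SE 0.08, edgeR adjusted p = 3.4e-07) and -0.98 for Fth1 (SE 0.10, edgeR adjusted p = 1.1e-05). The short transcripts as a class had a median of -0.76 in this comparison, and with transcript length taken out by an offset Ftl1 changed by -0.40 (edgeR adjusted p = 8.3e-05, range over alternatives 4.0e-58 to 8.3e-05) and Fth1 by -0.15 (edgeR adjusted p = 0.178, range 1.1e-22 to 0.178). On log2(TPM + 1) the values were -0.71 and -0.49. The part of library composition in these changes was not tested beyond that offset.

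The clone exceeded pEpiC by log2 1.15 for Fth1 (SE 0.10, edgeR adjusted p = 2.4e-06) and 0.98 for Ftl1 (SE 0.07, edgeR adjusted p = 5.3e-07), and these rises became 0.41 and 0.25 with the length offset and 0.78 and 0.60 on log2(TPM + 1), still past the threshold. Between the clone and CDC the chains differed little: Fth1 was at log2 0.22 (SE 0.09, edgeR adjusted p = 0.0376) and Ftl1 at log2 -0.19 (SE 0.09, edgeR adjusted p = 0.0819). Leaving out any 1 library other than CDC library 3 lifted Fth1 above the threshold of 0.05, to edgeR adjusted p from 0.0547 to 0.171, and Ftl1 passed in DESeq2 (adjusted p = 0.0201, range over alternatives 0.0201 to 1). Per length, Fth1 was 0.413, 0.468 and 0.537 times Ftl1 in CDC, 0.623, 0.59 and 0.658 in CDC-EpiC and 0.622, 0.534 and 0.497 in pEpiC. The clone libraries lay above the CDC libraries in this ratio, and pEpiC overlapped both. Together the chains made up 1.39% to 1.4% of TPM in CDC, 1.39% to 1.47% in CDC-EpiC and 0.847% to 0.973% in pEpiC. The ferritin genes have processed pseudogenes of near-identical sequence, so their counts are less certain than those of the other members.

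Ireb2 and Aco1, the iron regulatory proteins, differed by small amounts. Ireb2 was at 59.5, 59.6 and 65.7 CPM in CDC, 83.4, 73.7 and 72.1 in CDC-EpiC and 97, 100 and 96.9 in pEpiC. The 3 ranges did not overlap. It was higher than in CDC both in pEpiC (log2 0.63, SE 0.06, edgeR adjusted p = 4.1e-06) and in the clone (log2 0.30, SE 0.08, edgeR adjusted p = 0.00354), and lower in the clone than in pEpiC (log2 -0.36, SE 0.06, edgeR adjusted p = 3.6e-04). The pEpiC against CDC value was 0.21 with the length offset and 1.08 on log2(TPM + 1). The clone against pEpiC value was -0.71 on log2(TPM + 1). With the length offset it was 0.05 (edgeR adjusted p = 0.498, range over alternatives 1.1e-06 to 1), and against CDC library 3 alone the rise in the clone was 0.21 (edgeR adjusted p = 0.107, range 0.00119 to 1).

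Aco1, which is also the cytosolic aconitase, was at 62.3, 60.7 and 60 CPM in CDC, 78.7, 81 and 82.7 in CDC-EpiC and 63.9, 64.9 and 64.4 in pEpiC. The clone was higher than CDC (log2 0.40, SE 0.07, edgeR adjusted p = 1.2e-04) and than pEpiC (log2 0.33, SE 0.04, edgeR adjusted p = 5.6e-05), though the latter was 0.58 with the length offset and -0.06 on log2(TPM + 1) (limma adjusted p = 0.414, range over alternatives 8.8e-07 to 1). pEpiC and CDC differed by log2 0.03 (95% interval -0.07 to 0.14, edgeR adjusted p = 0.577), a value that was -0.20 with the length offset (edgeR adjusted p = 0.00415) and 0.52 on log2(TPM + 1) (limma adjusted p = 9.8e-05, range over alternatives 9.8e-05 to 1). Per length, Ireb2 was 0.719 to 0.831 times Aco1 in CDC, 0.667 to 0.817 in CDC-EpiC and 1.14 to 1.17 in pEpiC. Ireb2 was thus the more abundant of the regulators in pEpiC libraries and the less abundant in all others.

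In pEpiC against CDC, 9 of the 10 members passed the test, 4 higher and 5 lower, where 78.3% of all 13526 genes tested passed, 39.8% higher and 38.5% lower. In CDC-EpiC against CDC, 8 of the 9 members other than Heph passed, 5 higher and 3 lower, where 68.8% of 12976 genes passed, 34.2% higher and 34.6% lower. In CDC-EpiC against pEpiC, 9 of those 9 passed, 5 higher and 4 lower, where 81.9% of 13547 genes passed, 40.3% higher and 41.5% lower. The kinds differed in most genes, so these counts are near the background. The median size of the log2 change was 1.10, 0.50 and 0.91 over the members in the 3 comparisons, against 0.61, 0.44 and 0.71 over all genes tested. Against a 1.5-fold change, 6, 3 and 5 members passed, where 41%, 28.2% and 48.6% of all genes tested did. Without CDC libraries 1 and 2, 8 of 10 and 6 of 9 members passed in the comparisons with CDC.

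**Figure D3:**
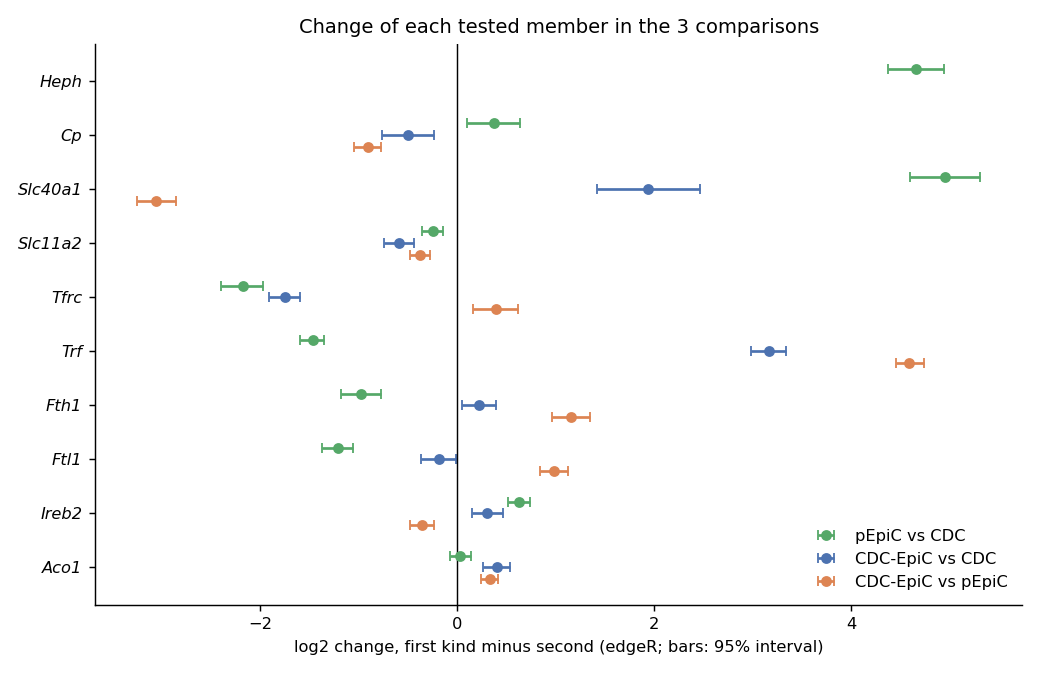
Log2 change of each tested member in pEpiC against CDC, CDC-EpiC against CDC and CDC-EpiC against pEpiC (first kind minus second), with 95% intervals from edgeR. Heph and Slc40a1 reach 4.66 and 4.95 in pEpiC against CDC, Trf reaches 3.16 and 4.59 in the clone, and Heph has no test in the clone.

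In TPM, the order of the members was led by Ftl1 and then Fth1 in each kind. In CDC they were followed by Trf (199 TPM), Cp (74.6), Slc11a2 (33.4), Aco1 (24.7), Tfrc (20), Ireb2 (19), Heph (1.92) and Slc40a1 (0.36). There the ranges of Tfrc and Ireb2 overlapped, so their order lies within the spread. In CDC-EpiC, Trf (1874 TPM) was followed by Cp (55.1), Aco1 (34.4), Ireb2 (24.9), Slc11a2 (24.5), Tfrc (6.26) and Slc40a1 (1.42), and Ireb2 and Slc11a2 overlapped. In pEpiC, Cp (133 TPM) came before Trf (101), Heph (67.7), Slc11a2 (42), Ireb2 (41.2), Aco1 (35.8), Slc40a1 (15.3) and Tfrc (6.26), and again Slc11a2 and Ireb2 overlapped. Heph thus held rank 9 of the members in CDC, 10 in the clone and 5 in pEpiC.

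Among 61 other iron genes in the table, 56 passed the filter on low counts in pEpiC against CDC, and 14 were higher, 29 lower and 13 did not pass the test. Steap3, the ferrireductase of the transferrin cycle, rose from 20.1 to 106 CPM (log2 2.35, SE 0.07, edgeR adjusted p = 1.9e-09), while its relative Steap1 fell from 45.2 to 7.35 CPM (log2 -2.66, SE 0.07, edgeR adjusted p = 1.0e-09). Bmp6, a ligand that drives hepcidin in liver, rose from 4.59 to 57.4 CPM (log2 3.60, SE 0.08, edgeR adjusted p = 2.5e-10), and Epas1, the hypoxia factor HIF-2alpha, from 11.5 to 77 CPM (log2 2.70, SE 0.08, edgeR adjusted p = 1.4e-09). Alad, the enzyme of the second step of haem synthesis, fell from 75.3 to 16 CPM (log2 -2.28, SE 0.07, edgeR adjusted p = 2.5e-09). Slc11a1, a metal transporter of macrophage phagosomes, rose from 0.547 to 7.75 CPM (log2 3.77, SE 0.27, edgeR adjusted p = 6.1e-07). It was 10.4 CPM in pEpiC library 1 and 6.23 and 6.57 in the others, and the part of macrophages in its rise was not tested. By role, 2 genes were higher and 3 lower of 6 in export and the hepcidin axis, 4 and 4 of 9 in uptake and endosome, 1 and 2 of 3 in storage and chaperones and 1 and 4 of 7 in regulation. They were 4 and 8 of 14 in mitochondrial import and iron-sulfur clusters, 1 and 4 of 8 in haem synthesis and 1 and 4 of 8 in haem breakdown and transport, where 39.8% of all genes tested were higher and 38.5% lower.

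In CDC-EpiC against CDC, 55 of these genes were tested, with 29 higher, 16 lower and 10 not past the test. Bmp2, another ligand that raises hepcidin in liver, rose from 1.52 to 49.9 CPM (log2 5.03, SE 0.14, edgeR adjusted p = 1.5e-13) and Bmp6 from 4.59 to 24.1 CPM (log2 2.38, SE 0.10, edgeR adjusted p = 2.2e-11). Alad rose to 378 CPM (log2 2.32, SE 0.08, edgeR adjusted p = 1.6e-12). Slc46a1, a folate carrier that also moves haem, rose from 5.73 to 31 CPM (log2 2.43, SE 0.10, edgeR adjusted p = 1.3e-11), Flvcr2 from 2.7 to 12.8 CPM (log2 2.23, SE 0.13, edgeR adjusted p = 7.2e-10) and Epas1 to 51.2 CPM (log2 2.15, SE 0.09, edgeR adjusted p = 2.0e-11). By role, 5 genes were higher and 1 lower of 6 in export and the hepcidin axis, 2 and 5 of 9 in uptake and endosome, 3 and 0 of 3 in storage and chaperones and 3 and 3 of 7 in regulation. They were 6 and 4 of 14 in mitochondrial import and iron-sulfur clusters, 6 and 1 of 8 in haem synthesis and 4 and 2 of 8 in haem breakdown and transport. Over all genes tested, 34.2% were higher and 34.6% lower in this comparison, and with so few genes a role nothing is read from these counts. Hamp, which codes for hepcidin itself, had 0 counts in every CDC and CDC-EpiC library and at most 2 in pEpiC.

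In CDC-EpiC against pEpiC, 31 of 55 tested genes were higher in the clone, 19 lower and 5 not past the test. Bmp2 was at 49.9 against 0.334 CPM (log2 7.20, SE 0.12, edgeR adjusted p = 4.6e-11) and Alad at 378 against 16 CPM (log2 4.56, SE 0.06, edgeR adjusted p = 1.6e-11). The ferrireductases split again, with Steap4 at 89.3 against 13.6 CPM (log2 2.71, SE 0.07, edgeR adjusted p = 5.1e-10) and Steap3 at 8.32 against 106 CPM (log2 -3.68, SE 0.08, edgeR adjusted p = 2.1e-10). Lrp1, a receptor that clears haem bound to hemopexin, was lower in the clone, at 642 against 3568 CPM (log2 -2.48, SE 0.08, edgeR adjusted p = 2.5e-09), as was Slc11a1 (log2 -4.25, SE 0.29, edgeR adjusted p = 3.7e-07). By role, 3 genes were higher and 2 lower of 5 in export and the hepcidin axis, 3 and 5 of 9 in uptake and endosome, 2 and 0 of 3 in storage and chaperones and 3 and 4 of 7 in regulation. They were 8 and 5 of 14 in mitochondrial import and iron-sulfur clusters, 5 and 2 of 8 in haem synthesis and 7 and 0 of 8 in haem breakdown and transport. Over all genes tested, 81.9% passed, 40.3% higher and 41.5% lower. The comparisons share libraries in pairs, so these counts are not independent of each other.

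**Figure D4:**
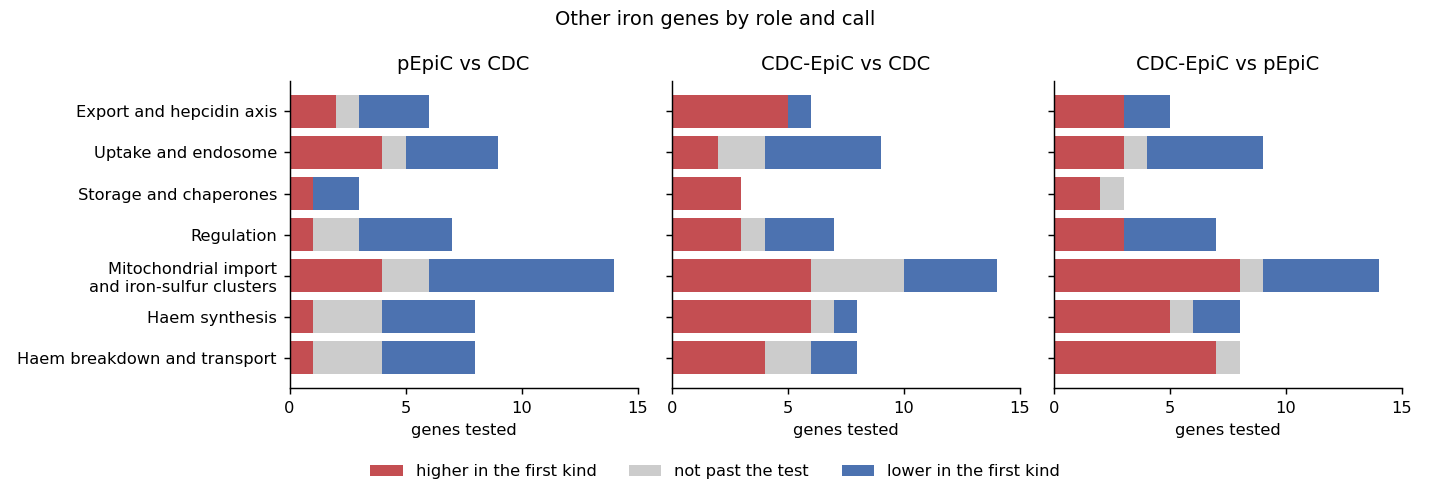
Number of other iron genes tested in each role that were higher (red), not past the test (grey) or lower (blue) in the first kind of each comparison. Haem breakdown and transport has 7 of 8 genes higher in CDC-EpiC against pEpiC, where 40.3% of all genes tested were higher. Mitochondrial import and iron-sulfur clusters has 8 of 14 lower in pEpiC against CDC, where 38.5% of all genes tested were lower. With so few genes a role, nothing is read from these counts.

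The pattern of Heph over the 9 libraries was compared with that of 13112 other genes by Pearson's r of log2(CPM + 1), as a description without a test. The most alike were Dpep1 (r = 0.9997), Gabrb1 (0.9996), Angptl2 (0.9992), Aldh1l1 (0.9990) and Lum (0.9988). Lum, the collagen-binding proteoglycan lumican, had 9.18 CPM in CDC, 0.445 in CDC-EpiC and 350 in pEpiC. Dpep1, a membrane dipeptidase, had 7.85, 0.774 and 154 CPM. These genes share with Heph the order pEpiC, CDC, clone, but each had reads in every clone library. The 9 points fall into 3 clusters by kind, so r mostly restates 3 means, and by Spearman's rho 101 genes competed for the first 5 places through ties, with Dpep1 (rho 0.983) among them and the other 4 genes (0.949 to 0.966) not. Of the other members, Cp was the nearest to Heph (r = 0.90) and Fth1 the farthest (r = -0.95).

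Within pEpiC, library 1 held more macrophage reads than the others, and the members were set against this. Fth1 was 1.29 times and Tfrc 1.27 times as high in library 1 as in the mean of libraries 2 and 3, and the other 8 members were at 0.969 to 1.09 times. All 10 macrophage markers were at 2.46 to 3.08 times. The ranges of members and markers did not overlap in this ratio. The part of macrophages in the level of any member was not tested.

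**Figure D5:**
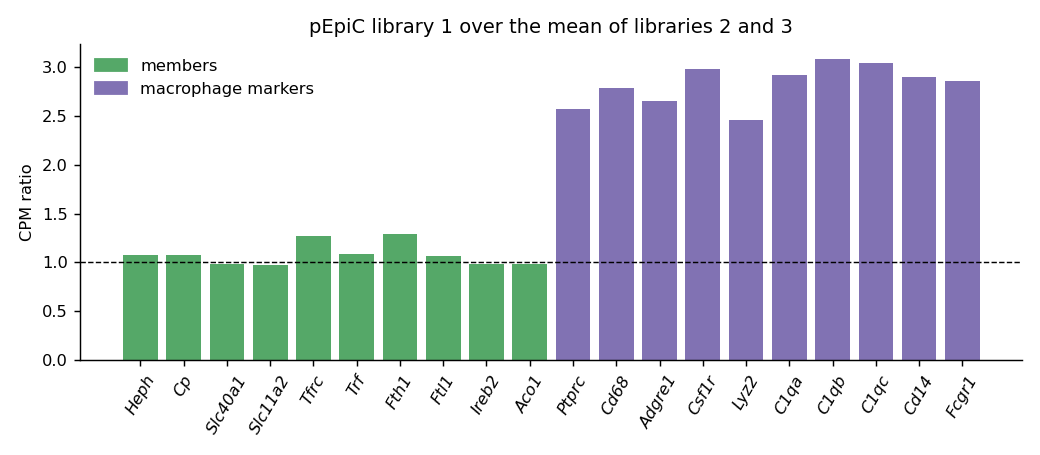
CPM in pEpiC library 1 divided by the mean of pEpiC libraries 2 and 3, for the 10 members (green) and 10 macrophage markers (purple), with bars from 0 and a dashed line at 1. The members lie between 0.969 and 1.29 and the markers between 2.46 and 3.08.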

How the data were processed

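Messenger RNA of 9 libraries was sequenced on a BGISEQ-500 with paired reads of 100 bases. The authors deposited expected counts (30.3% of values not whole), FPKM and TPM per gene. The submitters' processing notes name HISAT2 2.0.4, Bowtie2 2.2.5, RSEM 1.2.12, DESeq2 1.4.5 and mm10, without roles, and annotation and strand are not given in the sources used here. Another 9 columns, the authors' means, were not used. Counts were rounded and fitted for each pair of kinds (6 libraries) in edgeR 4.0.16 (R 4.3.3) with filterByExpr (minimum count 10, minimum total 15), TMM and the quasi-likelihood test, with Benjamini-Hochberg adjustment over all genes tested and a threshold of 0.05. The fits were tested on simulated data. CPM printed were scaled over all 9 libraries, so ratios of means can differ slightly from fitted changes. Alternatives used DESeq2 1.42.0, limma 3.58.1 on log2(FPKM + 1), log2(TPM + 1) and log2(FPKM + 0.1), other scalings, no filter, a transcript length offset, a test against a 1.5-fold change omitted libraries and, added after seeing the data, a replicate block. Other iron genes named are, per comparison, up to 6 with the largest change past the threshold, of 2-fold or more, reaching 5 CPM in 1 kind. The 5 genes most alike Heph had at least 1 CPM in a kind. Any other gene was named after its values were seen. Members and lists were chosen with earlier results of these data known. Positions and sequences are from GENCODE M21 (GRCm38, the same assembly as mm10). Floors cover counting error only, and PCR reads are not independent molecules. Intervals come from the edgeR quasi-likelihood fits, so they also include the spread between the libraries of a kind, which may be technical.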

Additional observations from a re-analysis of the deposited data

How the results depend on the processing

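Over the alternatives, 452 of the log2 changes of members kept their direction and their side of the threshold, 32 kept direction but no longer passed, 7 newly passed and 4 turned sign. The number of members past the test fell to 3 in CDC-EpiC against CDC and 5 in CDC-EpiC against pEpiC in the test against a 1.5-fold change, and stayed within 1.5 times its value in the other alternatives. Leaving out single libraries gave 8 to 9 members in pEpiC against CDC, 7 to 9 in CDC-EpiC against CDC and 9 throughout in CDC-EpiC against pEpiC. The values that turned sign were Slc11a2 in pEpiC against CDC (0.32) and Aco1 in CDC-EpiC against pEpiC (-0.06) on log2(TPM + 1), and Aco1 in pEpiC against CDC (-0.20) and Ireb2 in CDC-EpiC against pEpiC (0.05) with the transcript length offset. TPM moves the median of all genes by 0.41, 0.07 and -0.33 in the 3 comparisons. On that scale 8241 genes were higher and 2810 lower in pEpiC than in CDC, and 3656 higher and 7540 lower in CDC-EpiC than in pEpiC. The labels give no replicate numbers, but the columns are numbered, so a replicate block was added after seeing the data. It gave 9, 8 and 9 members past the test in the 3 comparisons and changed no call of a member. Deviations of libraries with the same number correlated at -0.09 to 0.13, and those of libraries with other numbers at -0.12 to 0.11. With 3 libraries a kind, these values cannot show whether libraries of the same number share a preparation. Low counts limit Slc40a1 in CDC and Hephl1 and Hamp throughout.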

Other observations

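The genes beside Heph on the X chromosome were read with these values, chosen after they were seen. Gpr165, the next listed gene downstream at chrX:96713441-96719388, had 3, 2 and 4 counts in CDC, 0 in each CDC-EpiC library and 163, 115 and 127 in pEpiC. Hsf3, at chrX:96306178-96456294 on the minus strand, overlaps Heph at the starts of both genes. Hsf3 had 3, 1 and 0 counts in CDC, 0 in each CDC-EpiC library and 17, 30 and 18 in pEpiC. Vsig4, at chrX:96247203-96293438, had 0 counts in each CDC and CDC-EpiC library and 6 in each pEpiC library. Farther out, Msn had 7800 to 8788 counts in the clone, against 16505 to 18831 in CDC and 15238 to 15895 in pEpiC. Eda2r had 326 to 484 in the clone, against 965 to 1007 in CDC and 1235 to 1327 in pEpiC. Las1l had 547 to 594 in the clone, 600 to 702 in CDC and 584 to 623 in pEpiC. CDC libraries held at most 4 counts of Gpr165, Hsf3 and Vsig4.

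Genes almost without reads in the clone were counted over the whole table. With at most 3 counts in every clone library and at least 50 in every other library there were 11 genes, Heph included. Of the 10 without Heph, 3 (Dmd, Tmem47 and Eda) lie on the X chromosome. With a minimum of 10, 20 or 88 counts in every other library, 6 of 56, 3 of 27 and 0 of 2 genes other than Heph did, and 3.68% of the 17760 table genes that GENCODE places do. That percentage covers genes of any count. The share on X among genes meeting the same minimum outside the clone was not computed. The chromosome was looked at after the values were seen. The others of the 11 were Pdlim3, C1qtnf2, Fibin, Bche, Plac8, Il16 and Cthrc1. Bche had 0 counts in each clone library, 65, 65 and 73 in CDC and 192, 177 and 192 in pEpiC. No test was made of these counts.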
